A study of Homo sapiens with 9 samples.

Results

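The genes examined were 10 components of the Notch pathway, chosen by name among the 63677 gene identifiers of the count files: the receptors NOTCH1, NOTCH2 and NOTCH3, the ligands JAG1, JAG2, DLL1 and DLL4, and the target genes HES1, HEY1 and NRARP. The rule uses names only, and all 10 identifiers were present and passed the filter on low counts in each comparison. SW480 is a hypotriploid epithelial cell line from a colorectal adenocarcinoma in which BASP1, known from axonal growth cones and as a nuclear cofactor that represses transcription, is silenced. SW480-B cells were derived from it by transfection with pcDNA3-BASP1, in which a cytomegalovirus promoter drives the BASP1 coding sequence, followed by geneticin selection and cloning from single cells, so that this line is 1 clone. In SW480-gRNA-B-all cells (SW480-Bsg in the sample titles and here), the endogenous BASP1 gene was reactivated by lentiviral delivery of dCas9-VP64, an activator complex recruited through MS2 (SAM), and pooled guide RNAs directed to the BASP1 promoter. Cells with the SAM vector were selected with hygromycin B, and cells that then received dCas9-VP64 were cloned from single cells. The guide RNAs were added last, with puromycin selection, so that SW480-Bsg also descends from cloned cells. Poly(A)-selected RNA of each line was sequenced as 3 libraries (n = 3), with 25238831 to 29355669 fragments counted on genes per library. The parental line carried neither vector, and no library of vector-only cells was analysed here, so effects of vector, selection and cloning cannot be told apart from those of BASP1. The paper states that total RNA of each line was isolated in triplicate. Neither it nor the labels say whether the libraries of a line come from separate cultures. The p-values therefore measure only the spread between these libraries, which may be technical.

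Notch signaling passes between touching cells. A Delta-like or Jagged ligand on 1 cell binds a Notch receptor on its neighbor, metalloproteases and γ-secretase cut the receptor, and the released intracellular domain enters the nucleus, joins the DNA-binding protein RBPJ and a Mastermind coactivator, and turns on genes such as HES1, HEY1 and NRARP. HES and HEY proteins are transcriptional repressors, and NRARP feeds back to limit the Notch complex. In the intestine, Notch activity keeps crypt progenitors proliferating and holds them back from the secretory fate.

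The level of BASP1 served as a check of the labels. It was 11.3, 8.09 and 0.688 CPM (counts scaled to library size) in the SW480 libraries, 266, 269.9 and 255 CPM in SW480-B, and 166, 308 and 305 CPM in SW480-Bsg, so every library of a BASP1-expressing line lay above all parental libraries. Replicate 3 of SW480, which had the lowest BASP1 level, stood apart from replicate 1 of the same line, with 32.5% of genes differing by over 2-fold, and replicates 2 and 3 of SW480-Bsg were the most alike pair, with 1.75% of genes differing by over 2-fold against 11.4% to 32.5% in the other pairs within a line. The epithelial keratin KRT8 was abundant in all lines (3542 to 6245 CPM). The defining markers of leukocytes, endothelium and fibroblasts were near or at 0, with PTPRC and CDH5 at no more than 0.217 and 0.0694 CPM in any library and COL3A1 at 0 counts in all 9. PECAM1 was not matched. The remaining endothelial and leukocyte markers summed to no more than 4.33 and 5.21 CPM in any library, and the 3 fibroblast and mural markers to 3.8 to 5.24 CPM in SW480 and 9.13 to 11 CPM in SW480-Bsg, where COL1A1 was called higher (log2 fold change 1.21, adjusted p = 0.036), a call made in 2 of the 6 fits that left out 1 library. Of the 7 colon epithelial markers, 2 were called lower in SW480-Bsg than in SW480, the intestinal transcription factor CDX2 (log2 fold change -3.28, adjusted p = 0.0090) and the brush border protein VIL1 (log2 fold change -4.44, adjusted p = 0.019), beside 4.66% of all genes. Each of these 2 calls was made in 3 of the 6 fits that left out 1 library. In SW480-B only VIL1 was called lower (log2 fold change -2.94, adjusted p = 0.025), beside 1.25% of all genes, and none of the 7 was called higher in either line. The VIL1 call in SW480-B was made in 2 of 6 such fits. The part of these marker genes in the Notch results was not tested. Fewer cells making a transcript and less transcript per cell cannot be told apart in these bulk libraries.

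Windows of 250 bases before the transcription start were read for 8 of the 10 genes from RefSeq (build GRCh38.p14). DLL1 and HEY1 had no entry. The windows printed are those of HES1, HES5 and HEY2, members of 1 gene family whose calls differed and whose windows hold the RBPJ core motif TGGGAA, and those of NOTCH1, JAG1 and JAG2, the receptor and ligand genes with the clearest difference between lines. Each is given 5′ to 3′ on the strand of the gene, with matches to TGGGAA or to its reverse complement TTCCCA in capitals.
HES1, chr3:194135898-194136147, plus strand: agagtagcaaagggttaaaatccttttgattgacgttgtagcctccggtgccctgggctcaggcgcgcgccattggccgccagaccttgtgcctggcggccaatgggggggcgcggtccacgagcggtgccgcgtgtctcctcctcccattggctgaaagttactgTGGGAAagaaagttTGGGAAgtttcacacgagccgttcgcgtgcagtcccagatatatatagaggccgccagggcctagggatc
HES5, chr1:2530264-2530513, minus strand: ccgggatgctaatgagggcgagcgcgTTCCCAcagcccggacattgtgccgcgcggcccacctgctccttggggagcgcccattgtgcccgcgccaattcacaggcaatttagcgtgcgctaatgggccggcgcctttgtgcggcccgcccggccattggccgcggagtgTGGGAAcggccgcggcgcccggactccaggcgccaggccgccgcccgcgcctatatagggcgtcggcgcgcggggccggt
HEY2, chr6:125749382-125749631, plus strand: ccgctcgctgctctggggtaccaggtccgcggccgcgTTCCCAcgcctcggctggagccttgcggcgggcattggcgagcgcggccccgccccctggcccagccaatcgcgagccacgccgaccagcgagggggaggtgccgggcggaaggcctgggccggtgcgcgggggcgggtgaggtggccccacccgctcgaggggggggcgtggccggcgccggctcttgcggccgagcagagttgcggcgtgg
NOTCH1, chr9:136546049-136546298, minus strand: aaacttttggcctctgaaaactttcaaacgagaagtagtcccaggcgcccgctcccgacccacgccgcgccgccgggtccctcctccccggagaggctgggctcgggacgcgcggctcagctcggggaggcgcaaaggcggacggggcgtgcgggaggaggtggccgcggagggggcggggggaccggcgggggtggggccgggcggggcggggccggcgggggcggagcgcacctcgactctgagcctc
JAG1, chr20:10674000-10674249, minus strand: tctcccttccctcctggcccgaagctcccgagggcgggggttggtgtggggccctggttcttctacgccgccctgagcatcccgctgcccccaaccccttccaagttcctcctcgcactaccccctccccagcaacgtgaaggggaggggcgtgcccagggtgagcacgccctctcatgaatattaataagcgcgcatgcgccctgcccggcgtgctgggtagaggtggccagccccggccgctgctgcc
JAG2, chr14:105168777-105169026, minus strand: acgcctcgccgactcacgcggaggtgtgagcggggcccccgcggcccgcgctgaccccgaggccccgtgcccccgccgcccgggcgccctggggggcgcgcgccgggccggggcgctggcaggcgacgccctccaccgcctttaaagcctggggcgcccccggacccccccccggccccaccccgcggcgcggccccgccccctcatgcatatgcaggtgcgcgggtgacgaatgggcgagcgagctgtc
Matches to TGGGAA lay 84 to 79 and 70 to 65 bases before the HES1 start, both on the gene's strand, whereas HES5 held 1 match on each strand and HEY2 held 1 match on the opposite strand. The windows of the other 7 members held 0 matches, and 20.8% of all 35116 RefSeq windows of this length hold at least 1 match on either strand. The TCF/LEF motif CTTTGAT and the E-box CACGTG, found in 2.26% and 6.34% of all windows on either strand, were absent from the windows of all 8 members and from those of HES5 and HEY2. As only TGGGAA had matches in the printed windows, no motifs overlapped, and a match or its absence describes the letters only.

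Among the receptors, NOTCH1 mRNA was lower in SW480-Bsg than in SW480, and NOTCH2 was not distinguishable between lines. NOTCH1 (ENSG00000148400, chromosome 9 from 139388885 to 139440500 in GRCh37, minus strand) encodes the receptor best known from T-cell leukemia and intestinal stem cells. It had 247, 192 and 118 CPM in SW480, 162, 67.2 and 77.0 CPM in SW480-B, and 37.2, 44.1 and 47.4 CPM in SW480-Bsg. All SW480-Bsg libraries lay below every library of the other lines, while SW480 and SW480-B overlapped. Relative to SW480, the log2 fold change was -2.17 in SW480-Bsg (SE 0.30, adjusted p = 0.014) and -0.86 in SW480-B (SE 0.41, adjusted p = 0.36), and that between both BASP1-expressing lines was -1.27 (SE 0.33, adjusted p = 0.053). In SW480 and in SW480-B the highest NOTCH1 level belonged to replicate 1, the library with the largest share of fragments outside genes in its line (8.16% and 9.93%), and the part of that share in the result was not tested.

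NOTCH2 (ENSG00000134250, chromosome 1 from 120454176 to 120643366, minus strand), a receptor of the same family with overlapping roles in the intestine, had 40.6, 109.6 and 152 CPM in SW480, 168, 142 and 141 CPM in SW480-B, and 143, 173 and 177 CPM in SW480-Bsg. Replicate 1 of SW480 was the lowest of all libraries, and replicate 3 lay within the range of the other lines. The log2 fold changes were 0.60 in SW480-B (SE 0.41, adjusted p = 0.52) and 0.68 in SW480-Bsg (SE 0.42, adjusted p = 0.32). Its partial copies NOTCH2NLA and NOTCH2P1 were listed at 0 counts in every library, so reads shared with near-identical copies may be missing from the NOTCH2 count.

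NOTCH3 (ENSG00000074181, chromosome 19 from 15269849 to 15311806, minus strand), a receptor prominent in vascular smooth muscle, was scarce. It had 5.73, 2.57 and 0.254 CPM in SW480, 0.769, 0.215 and 0.252 CPM in SW480-B, and 0.981, 0.576 and 0.543 CPM in SW480-Bsg. The SW480 libraries spanned 22.6-fold and enclosed all values of SW480-Bsg, whereas replicates 2 and 3 of SW480-B lay below them. With a small constant added to each value, 0.692% of the 14015 genes averaging at least 1 CPM over all libraries had a larger spread in SW480. The log2 fold changes of -2.80 in SW480-B (SE 1.03, adjusted p = 0.24) and -2.09 in SW480-Bsg (SE 0.96, adjusted p = 0.20) did not pass the test.

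**Figure D1:**
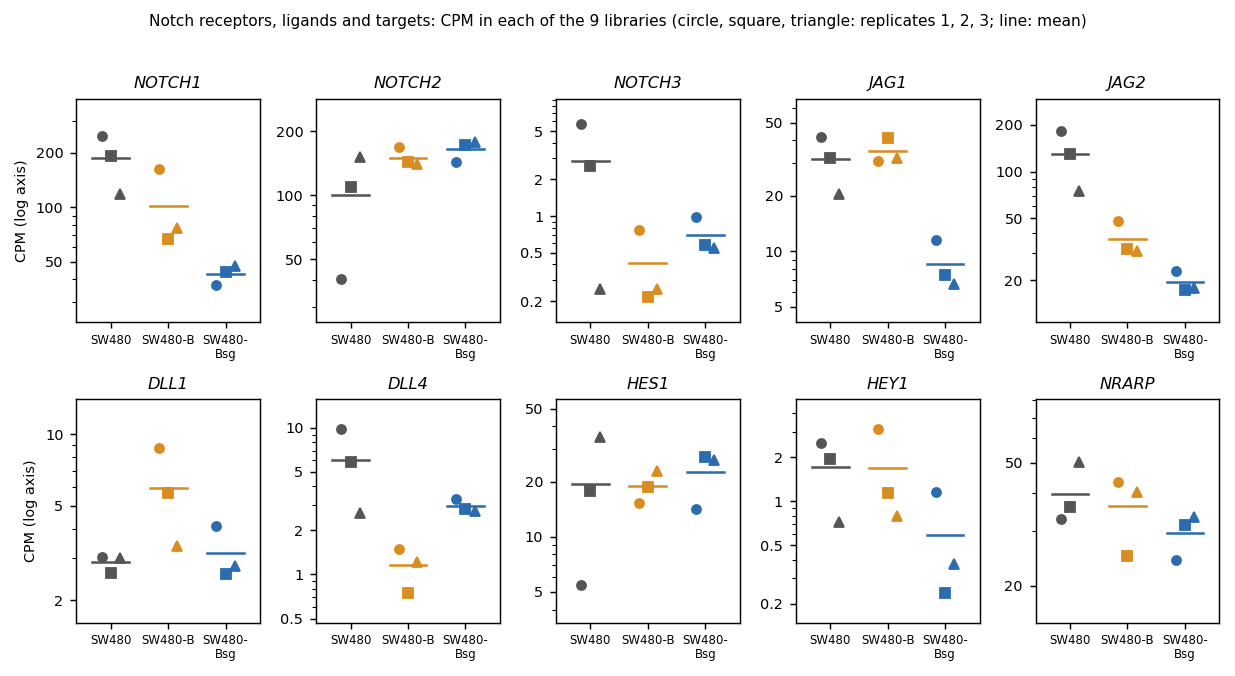
CPM of each of the 10 genes (log axis, 1 panel per gene) in the 3 libraries of SW480 (gray), SW480-B (orange) and SW480-Bsg (blue), with the mean as a line. NOTCH1, JAG1 and JAG2 lie lowest in all 3 SW480-Bsg libraries, while HES1 and NRARP overlap between lines.

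Per length, the make-up of the receptor transcripts in SW480-Bsg lay apart from that of SW480 and SW480-B, which overlapped. These shares were not tested. In FPKM (CPM per kilobase of the canonical transcript), NOTCH1 was 86.0%, 67.0% and 48.1% of the NOTCH1 to NOTCH3 sum in the SW480 libraries, 53.4%, 36.0% and 39.5% in SW480-B, and 23.5%, 23.3% and 24.2% in SW480-Bsg. NOTCH2 made up 75.5% to 76.3% of the sum in SW480-Bsg and 11.8% to 51.8% in SW480. The summed receptor level itself was 28.6 ± 2.53 FPKM (SD, n = 3) in SW480, 23.9 ± 6.79 in SW480-B and 18.9 ± 2.12 in SW480-Bsg. NOTCH1 was thus the leading receptor transcript in replicates 1 and 2 of SW480 and in replicate 1 of SW480-B, and NOTCH2 led in the remaining 6 libraries.

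The ligands JAG1 and JAG2 both fell in SW480-Bsg, and JAG1 was the 1 member of the 10 that edgeR called different between the BASP1-expressing lines. DESeq2 also called NOTCH1 lower (log2 fold change -1.26, adjusted p = 0.0035) and DLL4 higher (1.33, adjusted p = 0.0088) there. JAG1 (ENSG00000101384, chromosome 20 from 10618332 to 10654647, minus strand), a ligand reported as a β-catenin/TCF target in colorectal cancer cells, had 41.9, 32.2 and 20.5 CPM in SW480, 30.9, 41.4 and 32.3 CPM in SW480-B, and 11.5, 7.46 and 6.62 CPM in SW480-Bsg. SW480 and SW480-B shared the same range, and all SW480-Bsg libraries lay below it. The log2 fold change was -1.93 against SW480 (SE 0.36, adjusted p = 0.028) and -2.04 against SW480-B (SE 0.26, adjusted p = 0.0041), and 0.14 between SW480-B and SW480 (SE 0.30, adjusted p = 0.86).

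JAG2 (ENSG00000184916, chromosome 14 from 105607319 to 105635161, minus strand), the second Jagged ligand, was stepped across the lines. It had 183, 129 and 75.1 CPM in SW480, 48.4, 31.7 and 30.8 CPM in SW480-B, and 23.0, 17.2 and 17.9 CPM in SW480-Bsg, and no line overlapped another. Relative to SW480, the log2 fold change was -2.79 in SW480-Bsg (SE 0.36, adjusted p = 0.012) and -1.81 in SW480-B (SE 0.37, adjusted p = 0.064). With the replicate number as a block, the value in SW480-B was -1.74 with an adjusted p of 0.016, which is past the threshold. Between the BASP1-expressing lines the difference of -0.94 passed the adjusted p (SE 0.24, adjusted p = 0.048) but was under 2-fold. Counted at any size of change, JAG1 and JAG2 were the 2 members that passed there, both lower, beside 5.73% of all genes lower and 3.03% higher.

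DLL1 (ENSG00000198719, chromosome 6 from 170591294 to 170615653, minus strand), a ligand active in crypt cell fate, had 3.05, 2.6 and 3.01 CPM in SW480, 8.76, 5.66 and 3.38 CPM in SW480-B, and 4.13, 2.58 and 2.78 CPM in SW480-Bsg. All SW480-B libraries lay above those of SW480, by a log2 fold change of 1.05 that did not pass the test (SE 0.44, adjusted p = 0.30). FAM120B, with 8893 counts over the 9 libraries against 1011 of DLL1, overlaps DLL1 on the opposite strand, and since the strand setting of the counting is not given in the sources used here, fragments in the shared part may be split between them or left out.

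DLL4 (ENSG00000128917, chromosome 15 from 41221538 to 41231271, plus strand), a ligand best known from sprouting vessels, had 9.76, 5.83 and 2.64 CPM in SW480, 1.5, 0.753 and 1.22 CPM in SW480-B, and 3.25, 2.81 and 2.71 CPM in SW480-Bsg. The SW480-B libraries lay below all others, whereas SW480-Bsg lay within the range of SW480. The log2 fold changes were -2.39 in SW480-B (SE 0.58, adjusted p = 0.11) and -1.11 in SW480-Bsg (SE 0.49, adjusted p = 0.19), and the latter line exceeded SW480-B by 1.32 (SE 0.36, adjusted p = 0.059).

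Together the 4 ligands reached 42.5, 30.2 and 18.0 FPKM in the SW480 libraries, 16.3, 14.2 and 12.0 FPKM in SW480-B, and 7.97, 5.74 and 5.74 FPKM in SW480-Bsg. JAG2 contributed 72.1% to 74.8% of that sum in SW480, 38.7% to 51.3% in SW480-B, where JAG1 was of similar weight (31.9% to 49.2%), and 50.1% to 54.0% in SW480-Bsg.

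**Figure D2:**
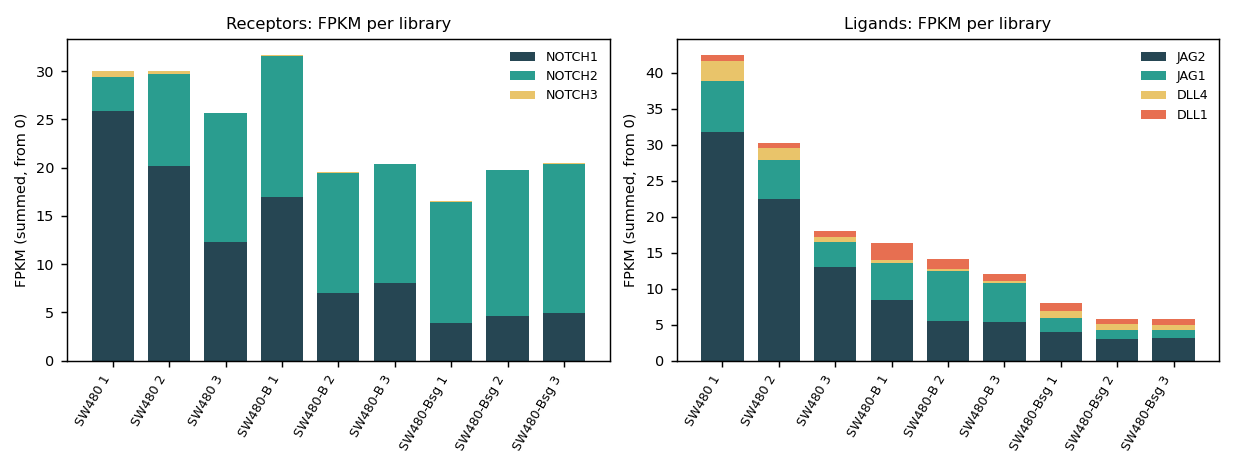
Stacked FPKM of the receptors (left) and ligands (right) in each of the 9 libraries, from 0. The ligand sum ranges from 18.0 to 42.5 FPKM in SW480 and from 5.74 to 7.97 FPKM in SW480-Bsg, and the NOTCH1 part of the receptor bars is smallest in SW480-Bsg.

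None of the 3 target genes among the members was called in any comparison by edgeR's quasi-likelihood test, none had an unadjusted p under 0.05 (0 of 3 in each comparison), and DESeq2 called 0 of them. Over all genes, 4572 of 16100 had an unadjusted p under 0.05 in SW480-Bsg against SW480. The numbers were 2549 of 16106 in SW480-B against SW480 and 3873 of 15846 between the BASP1-expressing lines. HES1 (ENSG00000114315, chromosome 3 from 193853937 to 193856521, plus strand), the repressor that opposes secretory differentiation in the crypt, had 5.44, 17.8 and 35.1 CPM in SW480, 15.3, 18.6 and 23.0 CPM in SW480-B, and 14.2, 27.1 and 26.2 CPM in SW480-Bsg. The parental libraries spanned 6.45-fold and enclosed all values of the other lines. The log2 fold changes were -0.016 in SW480-B (SE 0.55, adjusted p = 0.99) and 0.18 in SW480-Bsg (SE 0.60, adjusted p = 0.86), and with standard errors of this size a change of 2-fold in either direction could have gone unseen.

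HEY1 (ENSG00000164683, chromosome 8 from 80674606 to 80680092, minus strand), a repressor known from vessel and heart development, had 2.52, 1.94 and 0.724 CPM in SW480, 3.11, 1.15 and 0.791 CPM in SW480-B, and 1.15, 0.237 and 0.373 CPM in SW480-Bsg. Replicate 1 of SW480-Bsg overlapped both other lines. Relative to SW480, its log2 fold change was -1.60 in SW480-Bsg (SE 0.72, adjusted p = 0.20) and -0.039 in SW480-B (SE 0.67, adjusted p = 0.98).

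NRARP (ENSG00000198435, chromosome 9 from 140194083 to 140196723, minus strand), the feedback inhibitor, had 32.9, 36.0 and 50.1 CPM in SW480, 43.2, 24.9 and 40.3 CPM in SW480-B, and 24.3, 31.4 and 33.2 CPM in SW480-Bsg, with overlap between all lines. The log2 fold changes were -0.12 in SW480-B (SE 0.29, adjusted p = 0.87) and -0.46 in SW480-Bsg (SE 0.21, adjusted p = 0.21).

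The order of the members by level also shifted. Per length, SW480 was led by JAG2 (22.4 ± 9.38 FPKM, SD, n = 3), NOTCH1 (19.4 ± 6.78), NRARP (15 ± 3.48) and HES1 (12.4 ± 9.46), none of which differed from its neighbor in the order beyond the spread. SW480-B was led by NRARP (13.7 ± 3.73 FPKM), NOTCH2 (13.1 ± 1.32), HES1 (12.1 ± 2.43) and NOTCH1 (10.7 ± 5.45), again within the spread of each other. SW480-Bsg was led by NOTCH2 (14.4 ± 1.61 FPKM), HES1 (14.3 ± 4.58) and NRARP (11.2 ± 1.79), followed at a distance beyond the spread by NOTCH1 (4.48 ± 0.546) and JAG2 (3.36 ± 0.550). DLL1, HEY1 and NOTCH3 stayed under 2 FPKM on average in every line, as did DLL4.

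Counted together, 3 of the 10 members (NOTCH1, JAG1 and JAG2) were called lower and 0 higher in SW480-Bsg than in SW480, where a call needed an adjusted p under 0.05 and a change above 2-fold. Of all 16100 genes tested there, 4.66% were called lower and 1.89% higher. The median log2 fold change was -1.36 over the members and -0.054 over all genes. In SW480-B against SW480, edgeR called 0 of the 10 members. An unadjusted p under 0.05 was found for 4 members (NOTCH3, JAG2, DLL1 and DLL4), beside 2549 of all 16106 genes. DESeq2 called 3 members lower (NOTCH3, JAG2 and DLL4), beside 730 lower and 366 higher of 30000 genes. In that comparison edgeR called 1.25% of 16106 genes lower and 0.0931% higher, and the median was -0.080 over the members and -0.0039 over all genes. Between SW480-Bsg and SW480-B, edgeR called 1 member (JAG1) lower and 0 higher, beside 4.37% and 2.31% of 15846 genes. DESeq2 called 2 members lower and 1 higher there, beside 1021 lower and 556 higher of 28815 genes. The DESeq2 totals hold every gene with any count in the libraries compared, also those that edgeR's filter left out. Genes to which DESeq2 gave no adjusted p count in them as not called. Members whose libraries did not overlap between lines numbered 3 lower and 0 higher in SW480-Bsg against SW480 (18.6% and 19.1% of all genes), 2 lower and 1 higher in SW480-B against SW480 (10.8% and 11.7%), and 3 lower and 1 higher in SW480-Bsg against SW480-B (15.5% and 14.9%). Both comparisons with SW480 share the same parental libraries.

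**Figure D3:**
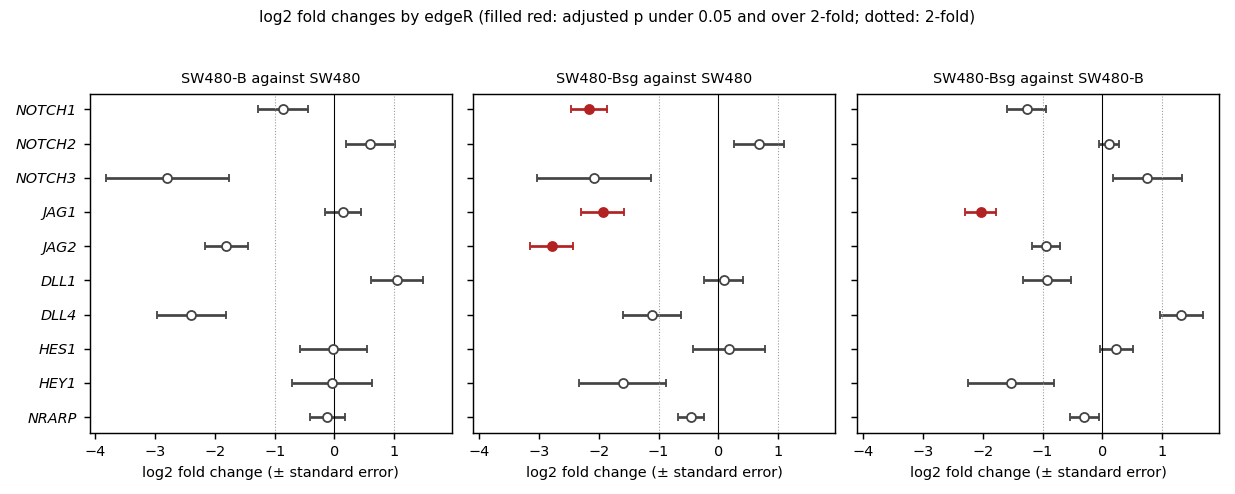
log2 fold change with its standard error for each gene in the 3 comparisons (edgeR, 3 libraries per line). Red filled points mark an adjusted p under 0.05 and a change above 2-fold, which applies to NOTCH1, JAG1 and JAG2 in SW480-Bsg against SW480 and to JAG1 against SW480-B.

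The calls against SW480 depended on single libraries. The differences of NOTCH1, JAG1 and JAG2 in SW480-Bsg varied in size but stayed lower by more than 2-fold without any 1 library. Without replicate 2 of SW480, the adjusted p of NOTCH1, JAG1 and JAG2 in SW480-Bsg rose to 0.077, 0.11 and 0.070, and none of the 3 was called. The calls were also lost without replicate 1, 2 or 3 of SW480-Bsg, with adjusted p from 0.054 to 0.12, and with its replicates 2 and 3 summed into 1 library (0.068, 0.11 and 0.063). Without replicate 3 of SW480, 5 members were called lower, also NOTCH3 (adjusted p = 0.024) and DLL4 (adjusted p = 0.033). That fit called 1698 lower and 961 higher of all 16846 genes. Over these fits the log2 fold change stayed between -2.39 and -1.87 for NOTCH1, -2.21 and -1.63 for JAG1, and -3.04 and -2.41 for JAG2. The lower JAG1 level in SW480-Bsg than in SW480-B was called in each of the 6 fits that left out 1 library, with adjusted p up to 0.027, and with the summed library (0.021). In SW480-B against SW480, leaving out replicate 3 of SW480 led to calls of JAG2 (adjusted p = 0.0068), DLL4 (0.017) and NOTCH3 (0.031). There 695 lower and 226 higher of all 16868 genes were called.

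**Figure D4:**
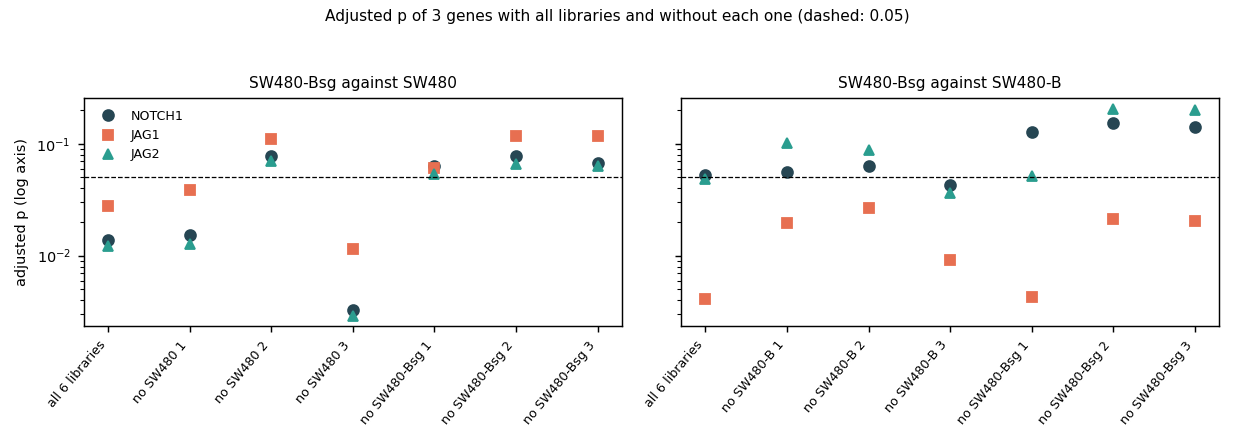
Adjusted p (log axis) of NOTCH1, JAG1 and JAG2 with all 6 libraries and with each library left out, for SW480-Bsg against SW480 (left) and against SW480-B (right). On the left all 3 genes cross 0.05 without SW480 replicate 2 or any SW480-Bsg library, and on the right JAG1 stays under 0.05 throughout.

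Most tested genes near the called members on the chromosome had a log2 fold change above that of the member. Neighbors that rose were not counted separately. In SW480-Bsg against SW480, the median difference of the 113 tested genes within 5 Mb of NOTCH1 was 0.21 on the log2 scale, and 5 of them were lower than NOTCH1. The 23 tested genes around JAG1 had a median of -0.25 with 3 below it, and the 69 around JAG2 a median of -0.013 with 4 below it. NRARP lies on the same chromosome end as NOTCH1 and was not called.

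Genes whose level followed that of a called member over the 9 libraries most closely were found by the correlation of log2(CPM + 1) among 14952 genes, given as a description, since the points share 3 lines. For NOTCH1 they were SYT8 (r = 0.98), PCF11 (0.98) and the pseudogene IMPDH1P8 (0.98). For JAG1 they were GART, an enzyme of purine synthesis (r = 0.99), HEY2, a Notch target of the HEY family (0.99), and TMEM47 (0.99). For JAG2 they were the serine protease TMPRSS2 (r = 0.99), LARGE2 (0.99) and SERPINI1 (0.99).

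Further 59 genes of the pathway were grouped by role. In SW480-Bsg against SW480, 52 of them were tested, of which 6 were called lower and 1 higher, beside 4.66% and 1.89% of all genes, and their median was -0.076. DESeq2 called 6 lower and 4 higher, beside 1520 and 860 of 29822 genes. The fit of all 9 libraries called 6 and 3, beside 1064 and 516 of 16680 genes. In SW480-B against SW480, 4 of 51 were called lower and 0 higher (1.25% and 0.0931% of all genes), with 4 and 2 by DESeq2 (730 and 366 of 30000 genes). In SW480-Bsg against SW480-B 3 of 50 were lower and 1 higher (4.37% and 2.31%).

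Among other receptors and ligands, CNTN1, a neural cell adhesion molecule described as a noncanonical Notch ligand, showed the largest difference of the pathway with counts in all libraries. It had 146, 127 and 27.1 CPM in SW480, 1.69, 2.94 and 1.80 CPM in SW480-B, and 0.507, 0.136 and 0.204 CPM in SW480-Bsg, with no overlap between lines. Relative to SW480, the log2 fold change was -5.55 in SW480-B (SE 0.67, adjusted p = 0.012) and -8.50 in SW480-Bsg (SE 0.89, adjusted p = 0.0078). DLK2, an atypical ligand described as a Notch antagonist, was called higher in SW480-Bsg, with 10.4, 8.17 and 8.01 CPM against 2.82, 4.17 and 4.27 CPM in SW480 (log2 fold change 1.20, SE 0.28, adjusted p = 0.048). That call was made in 1 of the 6 fits that left out 1 library. NOTCH4 and DLL3 were tested and not called in any comparison, and DLK1 had 0 counts in all libraries.

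LFNG, the Fringe glycosyltransferase that modifies Notch receptors and shifts their preference from Jagged toward Delta-like ligands, was the 1 glycosylation gene of 5 that was called. It had 82.0, 77.9 and 42.6 CPM in SW480, 4.65, 6.16 and 8.16 CPM in SW480-B, and 6.80, 6.85 and 7.46 CPM in SW480-Bsg. Both BASP1-expressing lines lay below SW480 and overlapped each other, with log2 fold changes of -3.41 (SE 0.36, adjusted p = 0.0094) and -3.31 (SE 0.30, adjusted p = 0.0054). POFUT1, which adds the O-fucose that Fringe enzymes extend, stayed between 149 and 206 CPM in all libraries.

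None of the 9 protease genes (FURIN, ADAM10, ADAM17 and the γ-secretase subunits) and none of the 13 ubiquitin ligases and endocytic adaptors, such as MIB1, NUMB and FBXW7, was called by edgeR in any comparison. In SW480-Bsg against SW480, 3 of 9 and 1 of 12 tested had an unadjusted p under 0.05, beside 4572 of all 16100 genes, and DESeq2 called 0 of both groups. Against SW480-B the numbers were 2 of 9 and 3 of 11, beside 3873 of 15846 genes. For SW480-B against SW480 they were 2 of 9 and 0 of 11, beside 2549 of 16106 genes, and in both comparisons DESeq2 again called 0.

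Of the 13 genes of the nuclear complex and its corepressors, RBPJ itself was not called in any comparison. TLE3, a Groucho-type corepressor that HES proteins and TCF factors recruit, had 226, 245 and 265 CPM in SW480, 144, 155 and 171 CPM in SW480-B, and 88.2, 104 and 108 CPM in SW480-Bsg. The lines did not overlap, and the log2 fold change was -1.34 in SW480-Bsg (SE 0.15, adjusted p = 0.0086) and -0.64 in SW480-B (SE 0.20, adjusted p = 0.19). TLE1, a corepressor of the same family, had 1.11, 6.46 and 4.35 CPM in SW480, 14.4, 19.9 and 7.76 CPM in SW480-B, and 21.6, 13.7 and 13.6 CPM in SW480-Bsg, so that both BASP1-expressing lines lay above SW480. Its log2 fold changes of 2.02 in SW480-Bsg (SE 0.58, adjusted p = 0.078) and 1.84 in SW480-B (SE 0.61, adjusted p = 0.21) did not pass edgeR's test, whereas DESeq2 called it higher in both (adjusted p = 0.0034 and 0.035). In SW480-Bsg against SW480, DESeq2 also called the acetyltransferase KAT2B higher (adjusted p = 0.0087), with 0.068 by edgeR. The coactivator MAML2 was lower in SW480-Bsg than in SW480-B (log2 fold change -1.41, SE 0.22, adjusted p = 0.0088), and KAT2B was higher (1.35, SE 0.30, adjusted p = 0.030).

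Of the other HES and HEY genes, 3 of 7 tested were called lower in SW480-Bsg than in SW480 (4.66% of all genes), and 2 of 7 in SW480-B (1.25%). HES5, a target of Notch in neural progenitors, had 1.64, 2.78 and 1.27 CPM in SW480, 0 counts in all SW480-B libraries, and 1 count in 1 SW480-Bsg library. The 165 counts in SW480 correspond to an at least 51.7-fold lower level in SW480-B, against a floor of 3 counts over the line, and the ratio to SW480-Bsg was 168 (95% counting interval 29.8 to 6677, which covers counting error only). HES6, which opposes HES1 activity in neural cells, had 62.1, 38 and 33.4 CPM in SW480, 6.11, 4.44 and 10.9 CPM in SW480-B, and 5.99, 7.39 and 8.62 CPM in SW480-Bsg. It was called lower in both lines, by log2 fold changes of -2.64 (SE 0.42, adjusted p = 0.029) and -2.66 (SE 0.31, adjusted p = 0.0091).

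HEY2 had 15.6, 13.6 and 6.84 CPM in SW480, 8.34, 19.0 and 12.5 CPM in SW480-B, and 1.39, 0.915 and 0.611 CPM in SW480-Bsg. SW480 and SW480-B overlapped, and all SW480-Bsg libraries lay below both, by -3.67 (SE 0.48, adjusted p = 0.013) and -3.77 (SE 0.43, adjusted p = 0.0028). Of the 3 genes whose printed windows hold TGGGAA, HES1 was thus not called, HES5 was called lower in both BASP1-expressing lines, and HEY2 was called lower in SW480-Bsg than in either other line. These windows were picked for their differing calls. The windows of HES4, HEYL and the untested HES3 also hold TGGGAA, and none of these genes was called. HES6 was called lower in both BASP1-expressing lines without a match. Of the 72 windows of the other pathway genes 17 hold a match, beside 20.8% of all windows. HES7, a repressor of the segmentation clock in the embryo, had the opposite direction, with 2.75, 4.76 and 1.56 CPM in SW480, 13.6, 8.99 and 10.4 CPM in SW480-B, and 19.0, 8.07 and 7.29 CPM in SW480-Bsg. All libraries of the BASP1-expressing lines lay above SW480, by log2 fold changes of 1.87 in SW480-B (SE 0.46, adjusted p = 0.11) and 1.89 in SW480-Bsg (SE 0.55, adjusted p = 0.079). Neither passed edgeR's test, and DESeq2 called both (adjusted p = 0.0016 and 0.0039).

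Of the intestinal genes downstream of Notch, ATOH1, NEUROG3, SPDEF and OLFM4 were too low to be tested, with no more than 10 counts in any line, and SOX9 and GFI1 were not called in any comparison.

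The number of pathway genes called also moved with the libraries, as did that of all genes. In SW480-Bsg against SW480 the pathway number was 0 without replicate 2 of SW480, 10 without replicate 3 of SW480, and 4, 2 and 2 without replicates 1, 2 and 3 of SW480-Bsg. Over all genes, 7 lower and 1 higher of 16508, and 1698 lower and 961 higher of 16846, were called without those SW480 replicates. Without the SW480-Bsg replicates the calls were 144 lower and 34 higher of 16739, 63 and 15 of 16822, and 62 and 14 of 16816. In SW480-B against SW480 the pathway number was 2 without replicate 2 and 6 without replicate 3 of SW480, and 0, 0 and 1 without replicates 1, 2 and 3 of SW480-B. Over all genes, 55 lower and 1 higher of 16593, and 695 lower and 226 higher of 16868, were called without those SW480 replicates. Without the SW480-B replicates the calls were 0 of 16646, 0 of 16810, and 14 lower and 2 higher of 16849. MAML2 and HEY2 were called between the BASP1-expressing lines in each of the 6 fits that left out 1 library.

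**Figure D5:**
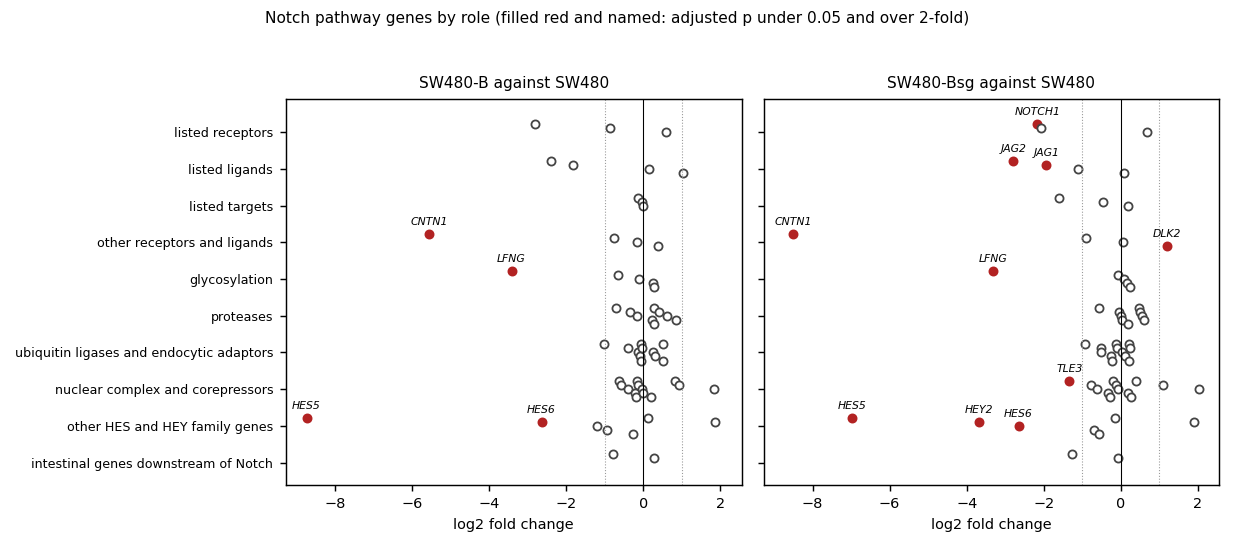
log2 fold change of the 10 members and of the tested pathway genes, by role, in SW480-B (left) and SW480-Bsg (right) against SW480, with called genes in red and named. CNTN1, LFNG, HES5 and HES6 are called lower on both sides, and the fitted value of HES5 depends on a prior count, since its level in the BASP1-expressing lines is 0 or 1 count.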

How the data were processed

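Stranded poly(A) libraries, 3 for each of the cell lines SW480, SW480-B and SW480-Bsg, were made from total RNA. GRCh37 was the genome build (named in the submitters' processing notes), and the authors deposited whole-number counts of fragments per Ensembl gene, not normalized. The counting program, its strand setting and versions are not given in the sources used here, and coverage metrics that the authors also deposited were not used. Lines that name no gene (5.22% to 9.93% of fragments on no feature, 3.09% to 3.44% ambiguous) were kept out of library sizes and tests. Of 63677 identifiers, 55665 were matched to a symbol, with 99.4% of counts. Coordinates and canonical transcript lengths came from GENCODE 44 mapped to GRCh37, which may differ from the authors' annotation.

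The 3 comparisons used the 6 libraries of the lines concerned and edgeR 4.0.16 in R 4.3.3, with filterByExpr (least count 10, least total 15), TMM scaling, glmQLFit (robust) and glmQLFTest. For differential expression the study names the program RaNA-Seq, and its test and settings are not given in the sources used here. Adjusted p-values are Benjamini-Hochberg over all genes tested, and a gene was called at an adjusted p under 0.05 and a change above 2-fold. Standard errors (SE) were derived from the F statistic, as log2 fold change over its square root. CPM use TMM factors over all 9 libraries, and FPKM are CPM per kilobase. A count of 0 was limited at 3 counts, 0.102 to 0.119 CPM per library.

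The members and lists were chosen with earlier results of these data known. Named in the text are all members, other pathway genes called in at least 1 comparison (up to 5 per list and direction), BASP1, and the 3 genes most alike to each called member. Genes named as not called were added to show the content of a list, HES7 and TLE1 after their values were seen. Same-numbered libraries of SW480-B and SW480 deviated together from their line means (r = 0.32, 0.47 and 0.41 over 14015 genes), and a fit with the replicate number as a block is given where it changed a call. Replicates 2 and 3 of SW480-Bsg differed by more than sampling noise (chi-square per degree of freedom 3.13, against 80.9 to 296 in other pairs) and were kept as separate libraries. Alternatives were RLE scaling, no filter, a filter of 1 CPM in 3 libraries, all 9 libraries in 1 fit, the block, DESeq2 1.42.0, each library left out, and the summed library. Figures were drawn with matplotlib 3.10.9.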

Additional observations from a re-analysis of the deposited data

Results flagged for a closer look

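The ectopic and the reactivated line were compared by the direct test of SW480-Bsg against SW480-B. It passed an adjusted p of 0.05 (edgeR) for 2 of 10 members and 5 of 50 other pathway genes tested. Of all 15846 genes, 5.73% passed it lower and 3.03% higher. These lines also differ in vectors, selection and founder cells, and the part of BASP1 in the differences was not tested. JAG1 was lower in SW480-Bsg by a log2 fold change of -2.04. JAG2 differed in the same direction by -0.94, under 2-fold. CNTN1 differed by -2.91 and HEY2 by -3.77. MAML2 differed by -1.41 and TLE3 by -0.66, the latter under 2-fold. KAT2B was higher by 1.35. The difference of JAG1, HEY2 and MAML2 was called in each of the 6 fits that left out 1 library, that of CNTN1 in 3 and that of KAT2B in 2. JAG2 was called, at a change above 2-fold, in 1 such fit, and TLE3 in 0.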

How the results depend on the processing

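Under RLE scaling and the filter of 1 CPM in 3 libraries, the calls of members and pathway genes kept their number in all comparisons, although NOTCH3 could not be tested with that filter in SW480-B against SW480 and in SW480-Bsg against SW480-B. Against SW480, the 1055 genes called in SW480-Bsg became 2380 with DESeq2 and 97 with the summed library, where 0 members and 3 pathway genes were called. The 216 genes called in SW480-B became 735 with no filter, 143 with the CPM filter, 452 with all 9 libraries in 1 fit and 1096 with DESeq2. The members called there were 2, 2 and 3 with no filter, 1 fit and DESeq2, and 1 with the replicate block. Between the BASP1-expressing lines, the 1059 genes became 654 in 1 fit and 446 with the summed library (2 pathway genes). Members called were 2 with no minimum fold, 2 with no filter, and 3 each with DESeq2 and with the replicate block (JAG1, NOTCH1 and DLL4, the last higher). In SW480-B against SW480 the block changed the call of JAG2 and of no other member or pathway gene. Same-numbered libraries of SW480-Bsg deviated together with r of 0.34, -0.0016 and 0.33 with SW480 and 0.30, -0.11 and 0.32 with SW480-B, replicates 2 and 3 did not correlate best with their own number, and the numbers were not taken to pair these lines. With the block, the genes called lower and higher were 858 and 341 against SW480 (751 and 304 without it), with 3 members called, and 885 and 504 against SW480-B (693 and 366). In SW480-Bsg against SW480, DLK2 (adjusted p = 0.076) and COL1A1 (0.051) were then no longer called, and KAT2B (0.042) was called higher.

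Over fits without 1 library each, the genes called ranged from 8 to 2659, 0 to 921 and 420 to 1548 in SW480-Bsg against SW480, SW480-B against SW480 and SW480-Bsg against SW480-B. The members called ranged from 0 to 5, 0 to 3 and 1 to 3, and the pathway genes from 0 to 10, 0 to 6 and 2 to 5. Leaving out replicate 2 of SW480 gave the lowest and leaving out its replicate 3 the highest number of genes in the first comparison. Without 1 library each, the log2 fold changes of uncalled genes ranged across 0, from -0.15 to 0.23 for DLL1 and from -0.24 to 0.93 for HES1 in SW480-Bsg, and in SW480-B from -0.097 to 0.43 for JAG1, -0.46 to 0.72 for HES1, -0.84 to 0.36 for HEY1 and -0.27 to 0.082 for NRARP. The values in SW480-B whose sign changed also include 0.11 for HES1 (0.30 with the replicate block), 0.022, 0.19 and 0.31 for HEY1 and 0.073 for NRARP. The cause of these changes was not tested.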
